A study of Artemia franciscana with 14 samples.

Results

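The enzymes described here set or remove histone acetylation outside the male-specific lethal (MSL) complex, and their RNA was followed through development of the brine shrimp *Artemia franciscana*, in which females are ZW and males ZZ. These 4 genes, of 19421 in the count table, are those that the qPCR primer list of the study assigns to acetylation factors other than MSL subunits: the acetyltransferases CBP/nej (jg3149), GCN5 (jg16372) and TIP60 (jg7034), and the deacetylase SIRT1 (jg8800). All 4 were found in the table. The enzyme names are those of the study, and the counts themselves carry no gene symbols.

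Poly(A) RNA was sequenced from 12 single wild-type embryos, with 3 females and 3 males at 1–2 days post-fertilization (dpf, blastula) and 3 females and 3 males at 4 dpf (after gastrulation), and from 1 adult female and 1 adult male. Among the early embryos, 2 came from 1 dpf (female replicate 3 and male replicate 1), and 4 from 2 dpf. Embryos were taken whole from fertilized females in which development was ovoviviparous, and whether any of them shared a mother is not given in the sources used here, so the p-values measure the spread between these embryos. The germline had been dissected out of the adults, whose RNA was diluted to a common input, whereas the RNA of the embryos was too little to quantify. Adult stage, tissue and RNA input therefore cannot be told apart, and in whole bodies fewer cells that express a gene and less RNA per cell cannot be told apart either. The sex of the embryos is the one the authors derived from SNPs in transcripts of the differentiated Z region.

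Acetylation of lysines in histone tails lowers their positive charge and creates docking sites for bromodomain proteins, and it goes with open chromatin and transcription. In *Drosophila* and mammals, CBP (nejire in flies) is a coactivator that acetylates histone H3 at enhancers and promoters. GCN5 is the catalytic subunit of the SAGA coactivator complex, known from yeast to mammals, and acetylates promoter nucleosomes on histone H3. TIP60 belongs, like MOF of the MSL complex, to the MYST family of acetyltransferases, and acts on histones H4 and H2A in transcription and in the repair of DNA breaks. SIRT1 works in the opposite direction: it is a deacetylase that consumes NAD+ and removes acetyl groups from histones, H4 among them, and from many other proteins.

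Embryo libraries held 2669131 to 7463397 counts, and the adults 3342959 (female) and 1840926 (male). Levels are given as CPM, the reads of a gene relative to the library total, scaled by the TMM method of edgeR over the 14 libraries, and are compared only within a gene because gene lengths were not used here. Reads that copy the same molecule were not collapsed. Counting intervals treat every read as independent, so they can be too narrow, and they cover no other source of error. Female replicate 12 at 1–2 dpf stood apart, with reads on 6414 genes, against 9481 to 11352 genes in the other 11 embryos and 7064 to 7399 genes in the adults. Comparisons of embryos that rest on this female are given with and without it.

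CBP was read in 11 of 12 embryos and in neither adult. At 1–2 dpf its level was 16.6, 9.55 and 0 CPM in female replicates 3, 9 and 12, and 80.9, 26.7 and 13.9 CPM in male replicates 1, 2 and 3. At 4 dpf it was 35.1, 37.6 and 13.6 CPM in female replicates 7, 10 and 11, and 64.8, 60.4 and 22.3 CPM in male replicates 2, 5 and 8. In rising order, the group means were 8.73 ± 8.34 CPM for early females, 28.8 ± 13.2 for females at 4 dpf, 40.5 ± 35.6 for early males and 49.2 ± 23.4 for males at 4 dpf (SD, n = 3 each). Every group overlapped with its neighbour in this order, and the highest single value belonged to the male collected at 1 dpf.

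GCN5 was read in all 14 libraries. At 1–2 dpf it stood at 142, 78.0 and 42.5 CPM in female replicates 3, 9 and 12 and at 95.1, 90.9 and 53.0 CPM in male replicates 1, 2 and 3. At 4 dpf it stood at 33.7, 57.7 and 73.5 CPM in female replicates 7, 10 and 11 and at 55.6, 55.3 and 63.4 CPM in male replicates 2, 5 and 8. The embryos collected at 1 dpf had the highest value of their sex. In falling order, the group means were 87.6 ± 50.6 CPM for early females, 79.7 ± 23.2 for early males, 58.1 ± 4.59 for males at 4 dpf and 55.0 ± 20.0 for females at 4 dpf (SD, n = 3 each), and neighbours overlapped. The adults, with 14.6 CPM in the female and 9.19 CPM in the male, lay below every embryo. Of 10994 genes tested, 28.4% had both adults below all 6 embryos of 4 dpf.

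TIP60 had few reads, at most 102 in an embryo and 0 in both adults. Its early levels were 8.57, 2.12 and 0 CPM in female replicates 3, 9 and 12 and 12.4, 1.89 and 7.48 CPM in male replicates 1, 2 and 3. At 4 dpf they were 1.36, 7.48 and 1.86 CPM in female replicates 7, 10 and 11 and 10.8, 17.2 and 13.1 CPM in male replicates 2, 5 and 8. At 4 dpf the 3 males were above the 3 females, whereas at 1–2 dpf the sexes overlapped. Apart from the 0 in female replicate 12, the lowest of these values rest on 7 to 9 reads. In rising order, the group means were 3.57 ± 4.47 CPM for early females, 3.57 ± 3.40 for females at 4 dpf, 7.26 ± 5.27 for early males and 13.7 ± 3.22 for males at 4 dpf (SD, n = 3 each).

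SIRT1 was the steadiest of the 4 among the embryos. It stood at 151, 184 and 71.0 CPM in early female replicates 3, 9 and 12 and at 128, 114 and 102 CPM in early male replicates 1, 2 and 3. At 4 dpf it stood at 123, 114 and 89.4 CPM in female replicates 7, 10 and 11 and at 136, 112 and 112 CPM in male replicates 2, 5 and 8. All 4 embryo groups overlapped, and their means lay between 109 ± 17.4 (females at 4 dpf) and 135 ± 58.0 CPM (early females, SD, n = 3 each). Early females overlapped with the others only through replicate 12. Without it their mean was 167 ± 23.0 CPM (SD, n = 2), and both were above every other embryo. The adult female, at 137 CPM, was within the range of the embryos, and the adult male, at 32.2 CPM, was below all of them.

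**Figure D1:**
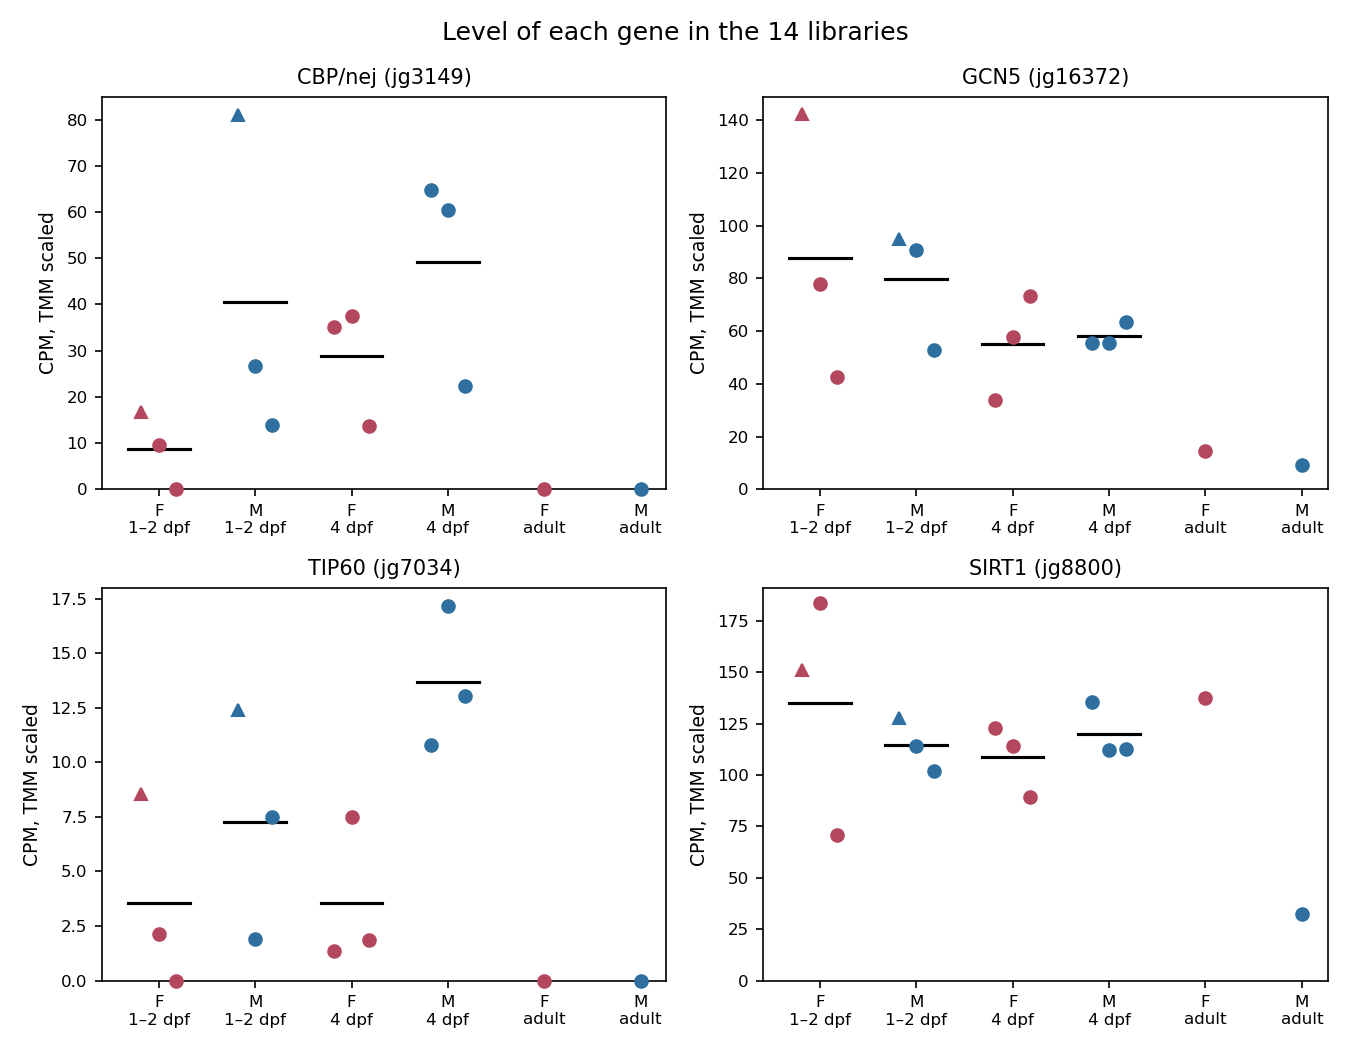
Level of each gene in CPM (vertical axis, TMM scaled, from 0) in the 14 libraries (horizontal axis, by stage and sex, F females in red and M males in blue). Each point is 1 library, triangles are the embryos of 1 dpf and bars are means of 3 embryos, and CBP and TIP60 are at 0 in both adults while the SIRT1 points of embryos spread around 109 to 135 CPM.

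The question of the stage comparison was whether the levels of these enzymes changed between the blastula and the embryo after gastrulation. None of the 4 did by the test. Over both sexes, the mean of CBP was 24.6 ± 28.9 CPM early and 39.0 ± 20.3 late, and that of TIP60 was 5.41 ± 4.81 and 8.62 ± 6.28 CPM (SD, n = 6 per stage). The mean of GCN5 was 83.7 ± 35.5 CPM early and 56.5 ± 13.1 late, and that of SIRT1 was 125 ± 39.2 and 114 ± 15.2 CPM (SD, n = 6 per stage).

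With the quasi-likelihood test of edgeR, 0 of 4 members passed an adjusted p-value of 0.05, where 8.0% of the 8362 genes tested did. No member had an unadjusted p-value under 0.05, and DESeq2 called 0 of the 4. The stages overlapped in each of the 4 genes, while 7.79% of the genes tested had stages that did not. The log2 fold change from 1–2 to 4 dpf was 0.65 for CBP (standard error 0.82, 95% interval −1.10 to 2.41, adjusted p = 0.731 from edgeR). For GCN5 it was −0.55 (standard error 0.31, 95% interval −1.21 to 0.10, adjusted p = 0.327 from edgeR), the member whose interval came closest to leaving out 0. TIP60 gave 0.67 (standard error 0.93, 95% interval −1.32 to 2.67, adjusted p = 0.757 from edgeR). For SIRT1 the value was −0.12 (standard error 0.23, 95% interval −0.62 to 0.38, adjusted p = 0.842 from edgeR). The interval of SIRT1 thus left out a change of 1 log2 unit in either direction, whereas those of CBP and TIP60 did not.

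Single embryos moved these estimates. Without female replicate 12, the stage change was 0.39 for CBP, 0.41 for TIP60 and −0.24 for SIRT1, with none called. Without it, the GCN5 change was −0.69 with an adjusted p-value of 0.147 from edgeR, and an exact permutation test of its log2 CPM over embryos (two-sided) went from p = 0.141 to p = 0.0390, not adjusted over genes. When only the 4 early embryos of 2 dpf were used, GCN5 had 66.1 ± 22.3 CPM (SD, n = 4) at the early stage and its log2 fold change was −0.22 (adjusted p = 0.745 from edgeR). The CBP value grew in that setting, which leaves out the male with its highest early level, from 0.65 to 1.63 (adjusted p = 0.329 from edgeR). TIP60 likewise went from 0.67 to 1.58 (adjusted p = 0.467 from edgeR).

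Within females, 98 genes rose and 51 fell from 1–2 to 4 dpf, which is 1.78% of those tested, and within males 3.33% were called. None of the members tested passed in either sex. In females the log2 fold change of CBP was 1.72 (standard error 1.39), with means of 8.73 and 28.8 CPM, and without replicate 12 it was 1.12 (GCN5 −1.02 and SIRT1 −0.64). In males it was 0.29 (standard error 0.67). The change of GCN5 was −0.67 (standard error 0.54) in females and −0.44 (standard error 0.32) in males, and that of SIRT1 was −0.32 (standard error 0.42) and 0.08 (standard error 0.25). TIP60 had too few reads in females to pass the filter on low counts, and gave 0.92 (standard error 0.78) in males.

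Whether the change with stage differed between the sexes was tested as an interaction in a model of the 12 embryos. It passed for none of the 4 members, with 0% of 9833 genes called in edgeR, 543 at an unadjusted p-value under 0.05 and 34 in DESeq2. In simulated counts this edgeR test recovered 2 of 182 genes changed by 3 log2 units. A lack of calls therefore cannot show that the change was equal in both sexes. The 95% interval of the difference in log2 fold change, females minus males, ran from −1.84 to 4.74 for CBP and from −4.90 to 3.11 for TIP60. It was narrower for GCN5, from −1.61 to 1.19, and for SIRT1, from −1.44 to 0.68. Without female replicate 12 the difference was 0.82 for CBP, −1.51 for TIP60, −0.58 for GCN5 and −0.72 for SIRT1, and none was called.

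The sexes were compared within each stage and over both. CBP and TIP60 had lower mean levels in females than in males at both stages, and GCN5 and SIRT1 had similar means, but no difference passed the test over all genes. Without female replicate 12 the early female means were 110 CPM for GCN5 and 167 CPM for SIRT1 (n = 2). Early males had 79.7 and 115 CPM (n = 3). Over both stages, the mean of CBP was 18.7 ± 14.7 CPM for females and 44.8 ± 27.3 for males, and that of TIP60 was 3.57 ± 3.55 and 10.5 ± 5.25 CPM (SD, n = 6 per sex). The mean of GCN5 was 71.3 ± 38.8 CPM for females and 68.9 ± 19.0 for males (SD, n = 6 per sex).

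With stage as a covariate, 0.0215% of 9290 genes were called between the sexes in edgeR, and 0 of the 4 members, none of which had an unadjusted p-value under 0.05. DESeq2 called 0 of the 4, with an unadjusted p-value of 0.0368 for CBP. Between females and males, the log2 fold change of CBP was −1.51 (standard error 0.79, 95% interval −3.21 to 0.19, adjusted p = 0.901 from edgeR). For TIP60 it was also −1.51 (standard error 0.92, 95% interval −3.48 to 0.47, adjusted p = 0.901 from edgeR). For GCN5 it was 0.01 with an interval from −0.67 to 0.68, and for SIRT1 0.03 with an interval from −0.50 to 0.55, which leaves out differences of 1 log2 unit in either direction for both genes.

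CBP and TIP60 were also tested alone, by exact permutation of sex within stage (400 relabelings, two-sided, smallest possible p = 0.005). The mean difference in log2 CPM was −1.86 for CBP (exact permutation p = 0.05) and −1.85 for TIP60 (exact permutation p = 0.04), neither of them adjusted over genes. Both genes have 0 reads in female replicate 12. Without that library the differences were −1.04 for CBP (exact permutation p = 0.105) and −1.27 for TIP60 (exact permutation p = 0.10). In edgeR the differences without it were −1.16 for CBP (unadjusted p = 0.0414, adjusted p = 0.882) and −1.28 for TIP60 (adjusted p = 0.895). For GCN5 and SIRT1 the exact tests over all 12 embryos gave differences of −0.09 (exact permutation p = 0.765) and −0.03 (exact permutation p = 0.9).

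The low reads of that female were not limited to these genes. Of the genes tested for stage, 30.4% had 0 reads in female replicate 12, against 1.05 to 5.80% in the other 11 embryos. Among genes that were at or above the mean CPM of a member in the other 5 early embryos, 5.64% were at 0 in it at the level of CBP and 20.6% at that of TIP60. GCN5 and SIRT1 had 192 and 321 reads there, the lowest CPM of both among early embryos and, for SIRT1, among all 12 embryos. A count of 0 in this library allows a level of up to 0.664 CPM, taken at 3 reads, where the next lowest CBP value among the embryos was 9.55 CPM. What the lower number of genes in this library contributed to the sex difference was not tested beyond leaving it out.

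At 1–2 dpf, 0% of 8089 genes were called between the sexes in edgeR, 490 had an unadjusted p-value under 0.05, and DESeq2 called 64. CBP gave −2.23 (standard error 1.42) for females against males, and TIP60 gave −1.04 (standard error 1.61). GCN5 and SIRT1 gave 0.13 (standard error 0.51) and 0.23 (standard error 0.41). These values moved with single libraries, and none was called. The CBP difference was −1.64 without female replicate 12 and, over all embryos left out in turn, lay between −3.09 (without female replicate 3) and −1.22 (without male replicate 1, the embryo with 80.9 CPM). The TIP60 difference was −0.45 without female replicate 12 and lay between −2.76 (without female replicate 3) and −0.40 (without male replicate 1). GCN5 and SIRT1 gave 0.46 and 0.54 without female replicate 12.

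At 4 dpf, 0% of 8979 genes were called in edgeR, 317 had an unadjusted p-value under 0.05, and DESeq2 called 26. TIP60 was the 1 member whose sexes did not overlap at this stage, at 3.57 ± 3.40 CPM for females against 13.7 ± 3.22 for males (SD, n = 3 each). Females were below males without overlap in 5.52% of the genes tested. Its log2 fold change was −1.94 (standard error 0.86, 95% interval −3.91 to 0.03, unadjusted p = 0.0531, adjusted p = 0.999 from edgeR). DESeq2 gave an unadjusted p of 0.0299 (adjusted p = 0.903), and without female replicate 10, the female with the most TIP60 reads, the edgeR value was −3.07 (unadjusted p = 0.0126, adjusted p = 1.00). The exact permutation test gave p = 0.1, the smallest that 3 against 3 embryos allow. CBP gave −0.78 (standard error 0.53), GCN5 −0.09 (standard error 0.35) and SIRT1 −0.15 (standard error 0.24), with overlapping sexes in each.

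**Figure D2:**
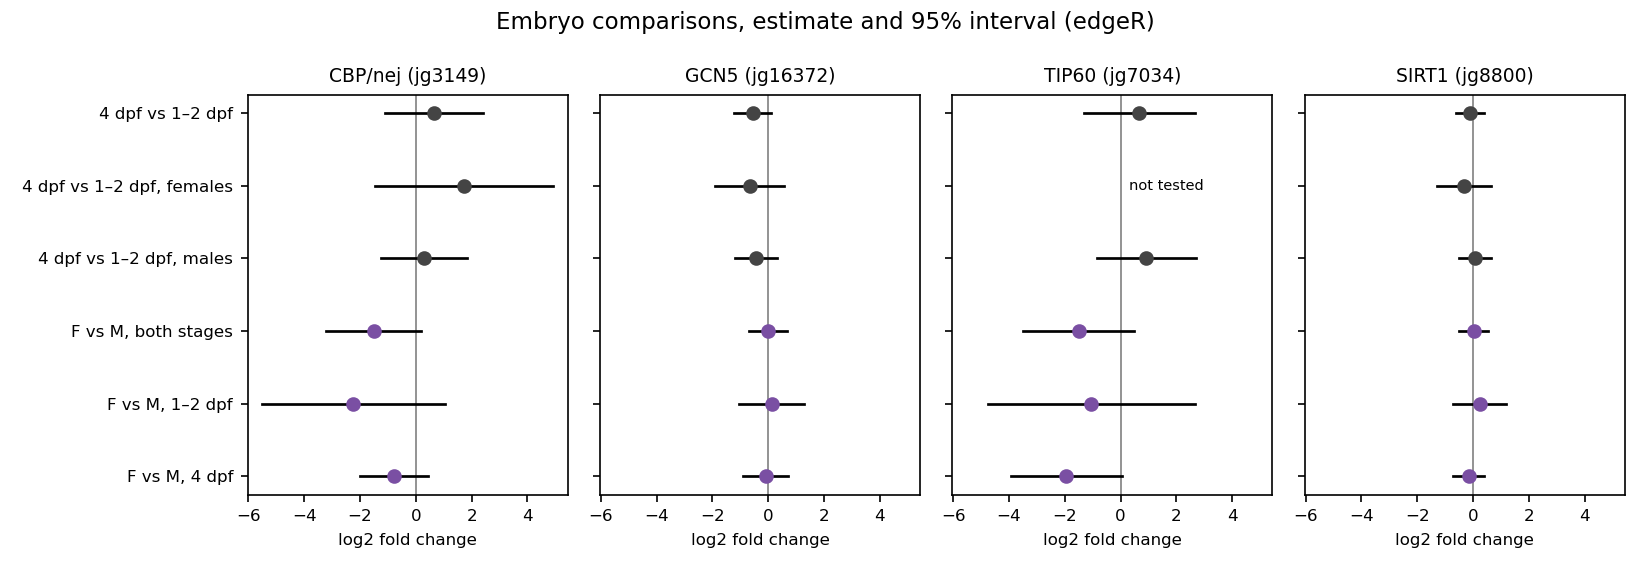
Log2 fold change (horizontal axis) of each gene in 6 comparisons of embryos (rows, by stage in grey and by sex in purple, F females and M males), with the estimate as a point and its 95% interval as a line. Every interval crosses 0, those of CBP and TIP60 are wide, and the TIP60 interval between the sexes at 4 dpf ends at 0.03.

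The 4 genes also differed in how much they varied between embryos of the same sex and stage. The biological coefficient of variation that edgeR estimated was 35.2% for SIRT1, a value that 7.79% of 9833 genes fell below, and 43.5% for GCN5, with 18.3% of genes below. It was 88.0% for CBP and 101% for TIP60, with 55.5% and 67.9% of genes below. The trend at the level of each gene was 47.5%, 52.0%, 67.0% and 104%, so that CBP was above the trend at its level and the other 3 were below it. Without female replicate 12 the values were 28.6% for SIRT1, 37.4% for GCN5, 58.1% for CBP and 77.6% for TIP60, with trends of 42.2%, 45.4%, 54.7% and 88.3%. Across the 12 embryos, CBP and TIP60 had the closest profiles among the members, with Pearson's r of 0.78 in log2 CPM, which was 0.51 over 11 embryos without female replicate 12. The other 5 pairs of members had r between 0.22 and 0.55 over 12 embryos, and between −0.21 and 0.32 without that female. The 12 embryos span both stages and differ in depth, and these values carry no test.

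The genes with the profiles nearest to each member over the 12 embryos, out of 8361, have no names in the sources used here. For CBP they were jg18806 (r = 0.97) and jg7265 (r = 0.96), which are both at 0 in female replicate 12 and had r of 0.85 and 0.84 without it. For GCN5 they were jg12161 (r = 0.91) and jg21277 (r = 0.89), with 0.90 and 0.91 without that embryo. For TIP60 they were jg3476 and jg15124 (r = 0.93 for both), and 0.86 for both without it. For SIRT1 they were jg12920 (r = 0.90) and jg11346 (r = 0.87), with 0.82 and 0.76 without it. At r over 0.9 CBP had 182 such genes, TIP60 had 2, GCN5 had 1 and SIRT1 had 0. Without female replicate 12 the counts were 0 for CBP and TIP60, 3 for GCN5 and 4 for SIRT1, so the CBP count rests on that library.

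In the adults, CBP, GCN5 and TIP60 were below the mean of either embryonic stage, and SIRT1 differed between the adult female and the adult male. CBP had 0 reads in both adults, where the mean level of 4 dpf would have given 90.5 reads in the female library and 67.8 in the male library. TIP60 also had 0 reads in both, where its mean level would have given 20.0 and 15.0 reads. GCN5 had 34 reads in the female and 16 in the male, against 131 and 98.4 at the mean level of 4 dpf. SIRT1 had 319 reads in the female and 56 in the male, against 266 and 199.

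A level of 3 reads, taken as the limit that a count of 0 allows, corresponds to 1.29 CPM in the adult female and 1.72 CPM in the adult male. At the higher of these limits, CBP would be at least 22.6-fold lower in adults than the mean of 4 dpf. Against the mean of 1–2 dpf it would be at least 14.3-fold lower. TIP60 would be at least 5.0-fold lower than at 4 dpf and at least 3.14-fold lower than at 1–2 dpf. These folds hold only if a count of 0 stands for 3 reads or fewer. Copies of the same molecule were counted, and 19% of genes with at least 56 reads in one adult had 0 in the other. TIP60 had 0 reads in female replicate 12, and stood at 1.36 to 2.12 CPM in the embryos with 7 to 9 reads. These levels are close to the limits, so the adults are not shown to lie below those embryos. For CBP the lowest embryo at 4 dpf, at 13.6 CPM, was well above them.

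Fitted in a model of all 14 libraries with sex as a covariate, 3 of the 4 members were called lower in adults than at 4 dpf, a call made in that direction for 17.0% of 10994 genes. The adjusted p-values from edgeR were 0.010 for CBP, 0.0120 for GCN5 and 0.0398 for TIP60. The same 3 were lower than at 1–2 dpf, with adjusted p-values from edgeR of 0.0147, 0.00344 and 0.0450, and 18.2% of genes were called in that direction. The log2 fold change of GCN5 was −2.27 (standard error 0.59) against 4 dpf and −2.83 (standard error 0.61) against 1–2 dpf. SIRT1 was not called, with −0.56 (standard error 0.51, adjusted p = 0.431 from edgeR) against 4 dpf and −0.66 (standard error 0.51, adjusted p = 0.335 from edgeR) against 1–2 dpf.

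These shifts stand beside a shift of the whole table. The median log2 fold change of all genes tested was −0.87 in adults against 4 dpf, or −0.34 with RLE scaling and −1.20 with library totals alone. Relative to this median, the value of GCN5 was −1.4 log2 units under each of these scalings, and that of SIRT1 was 0.31, 0.33 and 0.27. With 1 adult left out these values moved further: GCN5 was at −0.86 and SIRT1 at −0.06 without the adult female, and GCN5 at −0.47 and SIRT1 at 1.72 without the adult male. Higher calls made up 34.7% of all calls, 47.5% with RLE scaling and 28.1% with library totals. Both adults were below all 6 embryos of 4 dpf in 28.4% of genes, which included CBP, GCN5 and, by its counts of 0, TIP60, although 1 embryo of 4 dpf is at 1.36 CPM for TIP60, under the limit of 1.72 CPM in the adult male.

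Zero reads in both adults were common in the table. They were seen in 23.8% of the genes tested, in 14.3% of the 6301 genes whose mean at 4 dpf was at or above that of TIP60, and in 7.23% of the 2934 genes at or above that of CBP. Of 4798 genes with at least 56 reads in one adult, the lower SIRT1 count, 913 (19.0%) had 0 reads in the other, and DHX9/MLE (jg10843) was among them with 0 reads in the female and 175 in the male. The adult libraries also held fewer genes with a read than 11 of the 12 embryos. How much the tissue, the RNA input and the smaller number of genes detected add to the absence of CBP and TIP60 reads cannot be told apart from the stage. The study also assessed histone acetylation enzymes by RT-qPCR in young and old adults, and its primer list includes CBP and TIP60. Counts of 0 in both adult libraries therefore do not show that these genes are off in adults.

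The calls rested on 2 adult libraries. Against 4 dpf, the call of CBP was lost without the adult male (adjusted p = 0.0608 from edgeR) and kept without the adult female (0.0459), and that of GCN5 was likewise lost without the male (0.0710) and kept without the female (0.0350). Against 1–2 dpf, CBP was lost without the female (0.0611) or the male (0.0850), while GCN5 was kept without either (0.0143 and 0.0263). In each of these fits the remaining adult is assumed to vary like the embryos. The TIP60 call was the least firm: it held in 11 of 20 alternatives against 4 dpf and in 6 of 21 against 1–2 dpf, with adjusted p-values from edgeR and DESeq2 of 0.0105 to 0.159 and 0.0134 to 0.175.

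**Figure D3:**
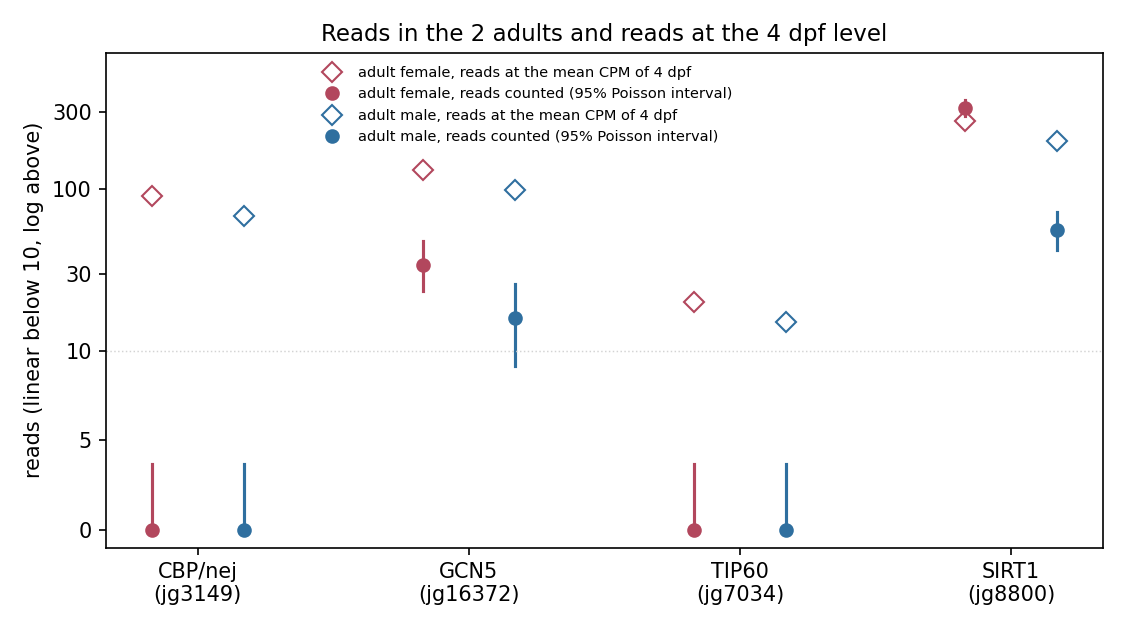
Reads of each gene counted in the adult female (red) and the adult male (blue), as filled points with 95% Poisson intervals, and the reads that the mean CPM of the 6 embryos of 4 dpf would give in the same library, as open diamonds (vertical axis in reads, linear below 10 and logarithmic above). CBP and TIP60 are at 0 in both adults, GCN5 is at 34 and 16 reads below its diamonds at 131 and 98.4, and SIRT1 is at 319 reads in the female, above 266, and at 56 in the male, below 199.

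Between the adults, SIRT1 had 137 CPM in the female and 32.2 CPM in the male, a ratio of 4.27 with a 95% counting interval of 3.21 to 5.78. The interval does not cover the choice of scaling. The TMM factor was 0.695 for the female and 0.946 for the male, and the lower factor raises the female levels relative to library totals. Other scalings were not compared for this pair. There is no replicate of either adult, so the ratio compares a pair of libraries. Of 10994 genes, 49.9% differed between them by more than 1 log2 unit at a pseudocount of 1 CPM. The SIRT1 difference was 2.06 on that scale. Both reference genes of the qPCR assays were also higher in this female. Their ratios were 2.69 for jg15373 (counting interval 2.45 to 2.96) and 2.28 for jg3163 (2.01 to 2.58). The embryos showed no ratio of that size, with SIRT1 means of 135 and 115 CPM in females and males at 1–2 dpf and of 109 and 120 CPM at 4 dpf. Without female replicate 12 the early female mean was 167 CPM (n = 2). With the adult female left out, SIRT1 was lower in the adult than at 4 dpf by −1.77 log2 units (adjusted p = 0.0435 from edgeR), and with the adult male left out the value was 0.19 (adjusted p = 0.787 from edgeR). The GCN5 ratio of female to male was 1.59 with a counting interval of 0.86 to 3.09, which includes equal levels.

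The MSL subunits served as the other genes of histone acetylation that the study gives by number: MOF (jg3349), the acetyltransferase, MSL1 (jg9702), MSL2 (jg13090), DHX9/MLE (jg10843) and MSL3/MRG15 (jg12255). Of these 5, as of the 4 enzymes, 0 passed the edgeR test in any comparison of embryos. In adults, 2 of the 5, MOF and MSL3/MRG15, were called lower than at either embryonic stage, beside 3 of the 4 enzymes. The share over all genes tested was 17.0% against 4 dpf and 18.2% against 1–2 dpf. The adults were split for MSL3/MRG15, with 64 reads in the female and 1 in the male. They were also split for MSL1 (0 and 51 reads) and DHX9/MLE (0 and 175 reads), which were not called. The median log2 fold change in adults against 4 dpf was −2.93 over the 5 MSL genes and −5.15 over the 4 enzymes, which includes fitted values of genes at 0, beside −0.87 over all genes tested. With the genes at 3 reads or fewer in both adults set to their bound (CBP and TIP60, MOF and MSL2), the medians were −2.34 and −2.30. The reference genes of the qPCR assays differed as well: jg15373 was higher at 4 dpf than at 1–2 dpf by 2.51 log2 units (standard error 0.37, adjusted p = 5.57e-04 from edgeR), and jg3163 was higher in adults than at 4 dpf by 2.14 (adjusted p = 0.00171 from edgeR).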

How the data were processed

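Single embryos and dissected adults of *A. franciscana* were sequenced from poly(A) RNA with a full-length low-input kit. The values deposited by the authors are whole-number counts per gene, made by trimming, mapping and counting in the Cogent pipeline. They are not normalized, and every read was counted, copies with the same molecular identifier included. The study names a published *A. franciscana* assembly as its reference genome, but the strand setting of the counting is not given in the sources used here, so overlapping or near-identical genes cannot be told apart. Columns were assigned to samples by barcode. Totals were 2669131 to 7463397 counts in embryos and 1840926 to 3342959 in adults.

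The analysis used R 4.3.3 with edgeR 4.0.16, limma 3.58.1 and DESeq2 1.42.0, and Python 3.11.15 with matplotlib 3.10.9 for the plots. After filterByExpr and TMM scaling, groups were compared by the quasi-likelihood F test over the whole table, and p-values adjusted by the Benjamini-Hochberg method over all genes tested (threshold 0.05). Standard errors were derived from the F statistic. Stage was tested over 12 embryos without a covariate, sex with stage as covariate and within each stage, stage within each sex, and adults in a model of 14 libraries with stage and sex. Single genes were also tested by exact permutation on log2 CPM (prior count 2), and 3 reads were taken as the floor. The methods were tested on simulated counts in which some genes were changed by 3 log2 units. Of the changed genes, 120 of 168 were recovered for stage, 110 of 180 for sex over both stages and 92 of 182 for sex at 4 dpf. Recovery was low for adults against 4 dpf, at 33 of 191, and for the interaction, at 2 of 182. Genes named are the 4 members, the 5 MSL genes, the 2 qPCR reference genes and, for each member, the 2 genes with the highest Pearson correlation. The members and lists were chosen with earlier results of these data known. Alternatives were DESeq2, RLE scaling, library totals alone (added after the data had been seen), no filter, embryos of 2 dpf only, a changed sex term, a replicate block (also added later), another pseudocount for the adults, and each library left out. No sequences or coordinates of these genes were used here.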

Additional observations from a re-analysis of the deposited data

Results flagged for a closer look

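Of 8 sets of 6 embryos examined (4 genes at 2 stages), 1 held a value that stands apart from the rest by Dixon's criterion, and chance flags about 1 set in 20. CBP was at 80.9 CPM in male replicate 1 at 1–2 dpf, against 0 to 26.7 CPM in the other 5 early embryos, and the gap to the nearest of them was 0.670 of the whole range. This male and female replicate 3, at 16.6 CPM, are the 2 embryos collected at 1 dpf. Without this male the CBP difference between the stages was 1.54 log2 units (adjusted p = 0.293 from edgeR) in place of 0.65, and that between the sexes over both stages was −0.97 in place of −1.51.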

How the results depend on the processing

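In comparisons of embryos, none of the members passed the adjusted threshold of edgeR or DESeq2 in any alternative run. Signs turned for small values. For GCN5 females against males over both stages, 0.0060 became −0.0201 with DESeq2, −0.0204 with RLE scaling, −0.0677 with library totals, −0.160 with embryos of 2 dpf only, −0.0901 by exact permutation on log2 CPM, and −0.24 to 0.16 with each library left out. SIRT1 in that comparison became −0.0581 with library totals, −0.0299 by exact permutation, and −0.12 to 0.15 with each library left out. TIP60 there reached −1.85 with an exact permutation p of 0.04. At 1–2 dpf GCN5 became −0.38 with embryos of 2 dpf only. With each library left out, the sex difference at 1–2 dpf ran from −0.40 to 0.46 for GCN5 and from −0.0525 to 0.54 for SIRT1, and at 4 dpf from −0.36 to 0.16 for GCN5. The stage difference ran from −0.24 to 0.0237 for SIRT1, and in males from −0.11 to 1.29 for CBP and from −0.00886 to 0.16 for SIRT1. TIP60 in females, not tested after the filter, gave −0.0144 without a filter and −0.59 to 0.39 with libraries left out. The interaction became 0.17 for GCN5 and 0.20 for TIP60 with embryos of 2 dpf only, and ran from −0.58 to 0.30 and from −2.03 to 0.80 with each library left out. The cause was not tested.

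In adults against 4 dpf, TIP60 lost its call with RLE scaling (−8.035). With each library left out, the fitted log2 change ran from −11.22 to −9.75 for CBP, from −2.56 to −2.005 for GCN5, from −8.78 to −7.31 for TIP60 and from −1.77 to 0.19 for SIRT1. Against 1–2 dpf, TIP60 lost its call with RLE scaling (−7.51), without a filter (−7.57) and with embryos of 2 dpf only (−6.48), and the ranges were −10.23 to −8.76 for CBP, −8.32 to −6.85 for TIP60 and −1.89 to 0.0705 for SIRT1. Fitted values of CBP and TIP60 depend on the prior count, since both adults are at 0.

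Counts of calls over all genes (higher and lower) moved by over 1.5 times with DESeq2, to 674 and 466 for stage, 397 and 226 in females, 533 and 305 in males, 9 and 5 for sex, 19 and 45 at 1–2 dpf, 16 and 10 at 4 dpf, and 23 and 11 for the interaction. Without a filter they were 199 and 129 in females, 330 and 171 in males, 7 and 5 at 1–2 dpf and 2 and 2 at 4 dpf. With embryos of 2 dpf only they were 193 and 205 in females, 15 and 4 for sex at 1–2 dpf and 28 and 17 for the interaction. No paired analysis was possible because the groups compared share fewer than 2 replicate numbers, except adults against 1–2 dpf, where 2 pairs of the same sex and number can be formed although an adult and an embryo are different animals. With this replicate block, chosen after the data had been seen, the values were −10.56 for CBP, −3.34 for GCN5, −8.51 for TIP60 and −1.07 for SIRT1, no member's call changed, and the counts over all genes were 469 higher and 1438 lower. TIP60 had 0 to 102 reads per library.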
